A study of Mus musculus with 4 samples.

Results

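Genes of reactive glia and metal binding were followed in mouse retina: Gfap, Vim, Mt1, Mt2, Cebpd, Stat3, Socs3, Lcn2, Serpina3n and Edn2. They are 10 of the 22558 gene symbols in the deposited tables, picked by name, and each stands at 1 locus. The list was drawn up with the levels at the later age known, so the difference between genotypes at that age describes the genes and was not tested. Retinas came from mice labelled Fezf2KO and from littermate controls labelled wildtype, all on the background given as C57/BL/6J, at day 7 (P7) or day 14 (P14) after birth. Fezf2 encodes a zinc-finger transcription factor, and the question asked was what its loss changes in retinal gene expression. The labels used here do not give the type of Fezf2 allele or how many animals gave RNA to a library. There was 1 library for each genotype and age, 4 in all, so no group had a replicate.

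Mueller glia span the whole thickness of the retina, and in the healthy retina they hold little of the filament protein GFAP. When photoreceptors or neurons are stressed or injured they enter a reactive state, known for more GFAP and vimentin filaments, for signalling from gp130 receptors through JAK kinases to the transcription factor STAT3, and for secreted acute-phase proteins. Metallothioneins are small proteins rich in cysteine that bind zinc and copper. Their genes are driven by the zinc-sensing factor MTF1 and also respond to glucocorticoids and cytokines.

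The levels are in FPKM, fragments scaled to transcript length and library size, which allows comparison between genes. Each level has a deposited lower and upper bound, which cover counting error within a library and not differences between mice or dissections. A gene is called higher or lower beyond counting error if its bounds in one library lay clear of those in the other. The widths of the bounds imply about 9282320 to 12426100 fragments per library, if they span 2 standard deviations on each side. Differences are on the log2(FPKM + 1) scale, where the change of a gene at a low level comes out too small. Fezf2 was at 8.32 FPKM in the control and 0.592 in the KO library at P7, and at 4.02 and 0.126 at P14, so the genotype labels held at both ages.

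Metallothioneins 1 and 2 are near neighbours on chromosome 8 and carry several of the results below, so their sequences are shown first. In the mm9 build, counted from 1, Mt2 lies at bases 96696518 to 96697467 and Mt1 at 96702989 to 96704227, with 5521 bases between them. Their coding sequences, from GENCODE M21, follow with the codons TGC and TGT, which encode cysteine, in capitals. The coding sequence of Mt3, a brain metallothionein that is not among the 10 genes, is shown for comparison.
Mt1: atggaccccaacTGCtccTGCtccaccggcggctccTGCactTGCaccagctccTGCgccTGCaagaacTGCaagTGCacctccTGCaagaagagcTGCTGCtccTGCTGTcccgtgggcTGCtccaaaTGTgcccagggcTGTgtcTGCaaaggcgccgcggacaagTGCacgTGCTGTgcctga
Mt2: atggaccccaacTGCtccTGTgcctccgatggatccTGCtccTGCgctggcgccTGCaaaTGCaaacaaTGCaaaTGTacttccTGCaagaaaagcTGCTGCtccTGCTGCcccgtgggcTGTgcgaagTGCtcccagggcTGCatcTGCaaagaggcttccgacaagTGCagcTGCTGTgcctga
Mt3: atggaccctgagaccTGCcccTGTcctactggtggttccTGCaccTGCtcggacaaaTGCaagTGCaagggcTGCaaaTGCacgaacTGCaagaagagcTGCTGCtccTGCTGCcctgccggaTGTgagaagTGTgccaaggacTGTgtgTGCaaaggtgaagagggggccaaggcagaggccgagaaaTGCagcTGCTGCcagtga

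Mt1 and Mt2 each have 61 sense codons, 20 of them for cysteine, and their coding bases are 79.6% identical. Mt3 has 68 sense codons and also 20 for cysteine. The longest stretch that Mt1 and Mt2 share without a mismatch is 20 bases of coding sequence, and no 36-base window of a GENCODE Mt1 transcript occurs in a transcript of another gene. A 36-base read, the length sequenced here, can therefore tell these genes apart. Of the 568 windows of Mt2 transcripts, 310 also lie in Gm45774, an antisense gene over Mt2. The library steps described in the labels name no strand marking, so reads from that pair cannot be told apart.

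The 250 bases before the RefSeq start of each gene (GRCm38.p6) were searched on both strands for TGCACNC and TGCGCNC, the core letters of the metal response elements that MTF1 binds. These windows are shown because both genes were higher at P14 in both genotypes, with matches in capitals. The Mt1 window is chr8:94178839-94179088 and the Mt2 window chr8:94172368-94172617, both on the plus strand.
Mt1: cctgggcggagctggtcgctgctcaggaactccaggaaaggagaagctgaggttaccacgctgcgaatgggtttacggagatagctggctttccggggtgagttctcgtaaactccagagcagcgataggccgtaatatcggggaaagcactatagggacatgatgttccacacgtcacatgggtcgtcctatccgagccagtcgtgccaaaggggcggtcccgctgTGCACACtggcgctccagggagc
Mt2: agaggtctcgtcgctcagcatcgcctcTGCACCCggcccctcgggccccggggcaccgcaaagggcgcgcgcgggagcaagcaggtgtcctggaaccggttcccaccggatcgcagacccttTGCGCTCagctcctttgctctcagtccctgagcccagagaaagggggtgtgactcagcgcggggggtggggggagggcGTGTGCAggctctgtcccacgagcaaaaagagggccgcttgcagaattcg

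The Mt1 window held 1 match and the Mt2 window 3, whereas 21.4% of 32817 promoter windows of this length held at least 1 and 1.26% held at least 3. GENCODE also places Mt1 starts 122 and 152 bases, and Mt2 starts 46 and 242 bases, downstream of the RefSeq start. Those stretches lie outside these windows and were not searched. The matches are therefore no count of the metal response elements that either gene has. Of the 10 genes 9 had a promoter entry, and none of the other 7 held either core. The STAT half-site pair TTCNNNGAA, which reads the same way on both strands, was found in 7.01% of all windows and among the 9 in that of Socs3 alone. A match is a description of letters and not of binding.

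**Figure D1:**
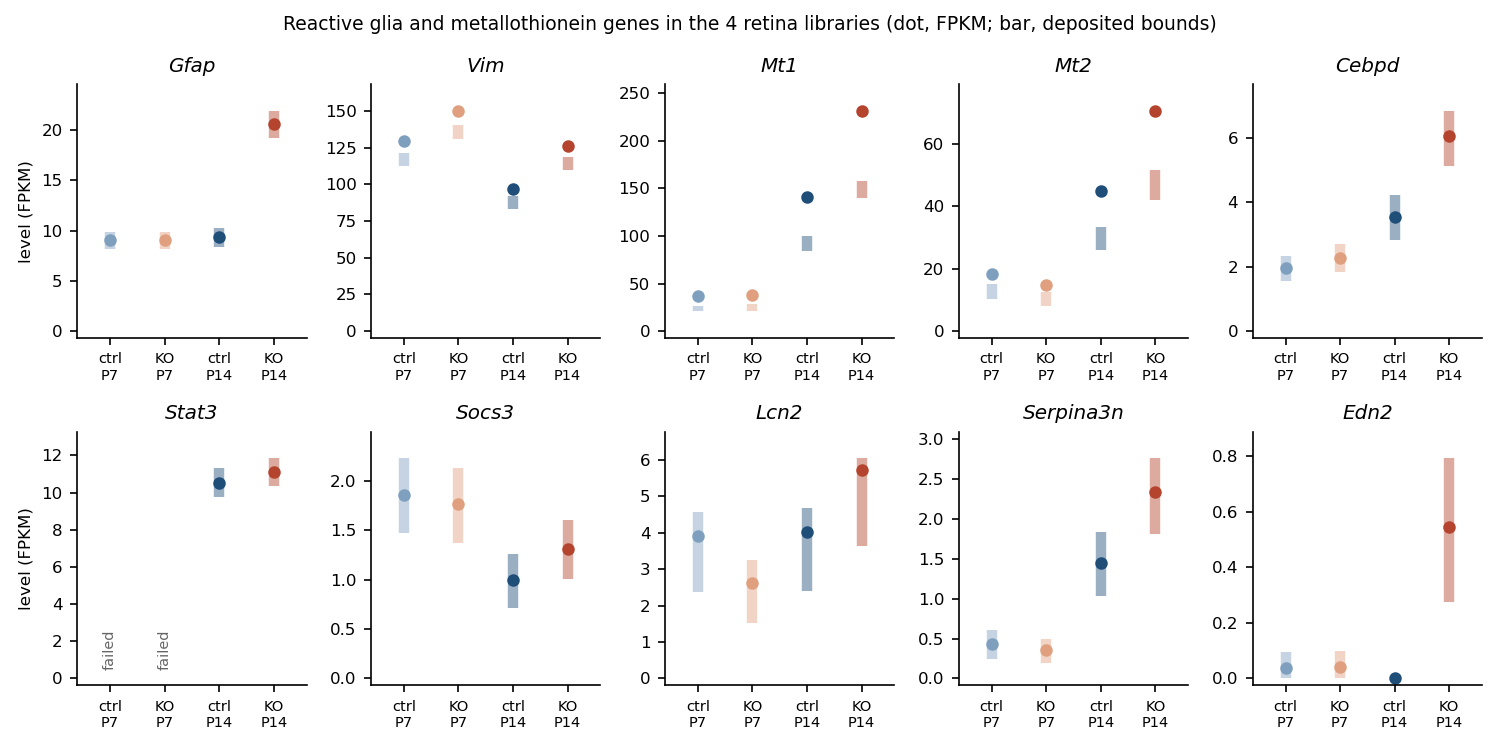
Level in FPKM (y axis, a separate linear scale for each gene) of the 10 genes in the 4 libraries (x axis); dots are FPKM and bars run from the deposited lower to the upper bound, with 1 library per group. Gfap stood at about 9 FPKM in 3 libraries and at 20.6 in the KO P14 library; for Vim, Mt1 and Mt2 the dots lie above their bars, and Stat3 failed in both P7 libraries.

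Gfap, which encodes the intermediate filament protein of reactive Mueller glia and of astrocytes, had the largest difference between the genotypes at P14 among the 9 members at 1 FPKM or more. It was at 9.03 FPKM in the control and 9.02 in the KO library at P7, and at 9.32 in the control and 20.6 in the KO library at P14. The KO P14 library thus stood alone above 3 libraries of nearly one level. The log2 difference between the genotypes was -0.0014 at P7 (bounds of Gfap 8.20 to 9.86 and 8.17 to 9.86). At P14 it was 1.06, 2.09-fold, with bounds of 8.40 to 10.3 in the control and 19.2 to 21.9 in the KO library. These widths imply 408 to 957 Gfap fragments per library. A difference of 2-fold or more upward was shared by 7 of 12812 genes at P14, 0.0546%, and Gfap was the 1 member past it on this scale.

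Vim, the filament gene of Mueller glia at rest as well, was the most abundant member at P7. At P14 it was second to Mt1 by FPKM, although their bounds overlapped in the control library (83.4 to 92.4 and 84.0 to 100 FPKM). It was at 129 FPKM in the control and 150 in the KO library at P7, and at 96.5 and 126 at P14. It was higher in the KO library at both ages beyond counting error, with log2 differences of 0.21 and 0.38. Of 12222 genes measured at both ages 1.50% were higher at both in this way. The ratio of Vim to Gfap was 14.3 and 16.6 at P7 (control and KO) and 10.4 and 6.14 at P14. The FPKM of Vim, Mt1 and Mt2 lay above their own upper bounds in all 4 libraries, so for these genes bounds were compared only with bounds.

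Mt1 and Mt2 rose with age in both genotypes and were higher in the KO than in the control library at P14. Mt1 was at 36.5 FPKM in the control and 37.7 in the KO library at P7, and at 141 and 231 at P14. Mt2 was at 18.4 and 14.7 FPKM at P7 and at 44.9 and 70.5 at P14. At P7 the bounds of the genotypes overlapped for both genes. At P14 they did not: those of Mt1 ran from 84.0 to 100 FPKM in the control and from 139.9 to 158 in the KO library, and those of Mt2 from 25.9 to 33.5 and from 42.0 to 51.5. The log2 differences at P14 were 0.71 for Mt1 and 0.64 for Mt2. Mt1 exceeded Mt2 in every library, by 1.99 and 2.57 times at P7 and by 3.15 and 3.28 times at P14 (control and KO).

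Among the signalling genes, Cebpd, which encodes a C/EBP transcription factor of the acute-phase response, was higher in the KO library at P14. It was at 1.95 and 2.26 FPKM at P7 and at 3.53 and 6.06 at P14 (control and KO in each pair). The bounds at P14, 2.83 to 4.21 and 5.13 to 6.83, did not overlap, and the log2 difference was 0.64. Those at P7 did. GENCODE places Spidr on the opposite strand over Cebpd, and 14.1% of the 36-base windows of Cebpd transcripts also lie in Spidr.

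Stat3 and Socs3 did not differ between the genotypes beyond counting error where they were measured. Stat3, the transcription factor at the end of the gp130 pathway, was at 10.5 FPKM in the control and 11.1 in the KO library at P14 (log2 difference 0.07). Stat5a overlaps Stat3 on the opposite strand in GENCODE. The level of Stat3 is marked as failed and listed at 0 in both P7 libraries, so it was left out there. Socs3, a feedback inhibitor of the same pathway and a known target of STAT3, was at 1.86 and 1.76 FPKM at P7 and at 0.995 and 1.31 at P14. Its log2 differences were -0.05 and 0.21, and the bounds overlapped at both ages.

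Lcn2, Serpina3n and Edn2 encode secreted proteins. Lcn2, which encodes the iron-carrier binding protein lipocalin-2, was at 3.90 FPKM in the control and 2.61 in the KO library at P7, and at 4.01 and 5.71 at P14. The log2 differences of -0.44 and 0.42 went opposite ways, but the bounds overlapped at both ages and rest on an implied 29.6 to 65.2 fragments. Serpina3n, a serine protease inhibitor gene, was at 0.432 and 0.356 FPKM at P7 and at 1.44 and 2.34 at P14. The upper bound in the control P14 library, 1.84 FPKM, lay just above the lower bound in the KO P14 library, 1.82. Of its 36-base windows 16.9% occur in other genes, most of them of the Serpina3 family, so its level is uncertain.

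Edn2, which encodes the peptide endothelin-2, known to be made by stressed photoreceptors, was the least abundant member. It was at 0.0381 and 0.0398 FPKM at P7, listed at 0 in the control P14 library and at 0.546 in the KO P14 library (bounds 0.274 to 0.792). The KO P14 level rests on an implied 17.0 fragments. The bounds of the control are both 0, so they give no measure of its counting error, and no fold is given.

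At P14 all 10 members had a higher level in the KO than in the control library. Of the 9 at 1 FPKM or more in either library, 5 were higher beyond counting error (Gfap, Vim, Mt1, Mt2 and Cebpd), where 7.45% of 12812 genes were higher and 8.25% lower. Rescaled to transcripts per library (TPM), 3.89% of genes were higher and 12.2% lower, and these 5 members and Edn2 were called. Edn2, under 1 FPKM, was also apart by its bounds on the FPKM scale. The members were chosen with this comparison known, and Socs3 reached 1 FPKM only in the KO library, so nothing is read from these counts. The median log2 difference of these 9 was 0.45, against 0.00 over all genes.

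At P7 the same genes showed no common direction. Of 9 measured members, 4 had a higher level in the KO and 5 in the control library, and Vim was the 1 that differed beyond counting error. Of 12668 genes 7.34% were higher and 6.10% lower in this way, and 3.64% and 8.75% on the TPM scale. The median of the 7 members at 1 FPKM or more was -0.0014, against 0.01 over all genes. The members were named with the levels at both ages known, so the gap between P7 and P14 is a description. The difference between the ages in the genotype difference was 1.06 for Gfap, 0.95 for Mt2, 0.86 for Lcn2 and 0.66 for Mt1 on the log2 scale. It was 0.63 for Edn2, 0.53 for Serpina3n, 0.50 for Cebpd, 0.26 for Socs3 and 0.17 for Vim. Edn2 and Serpina3n were under 1 FPKM at P7. With 1 library per group this difference between the ages has no test.

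**Figure D2:**
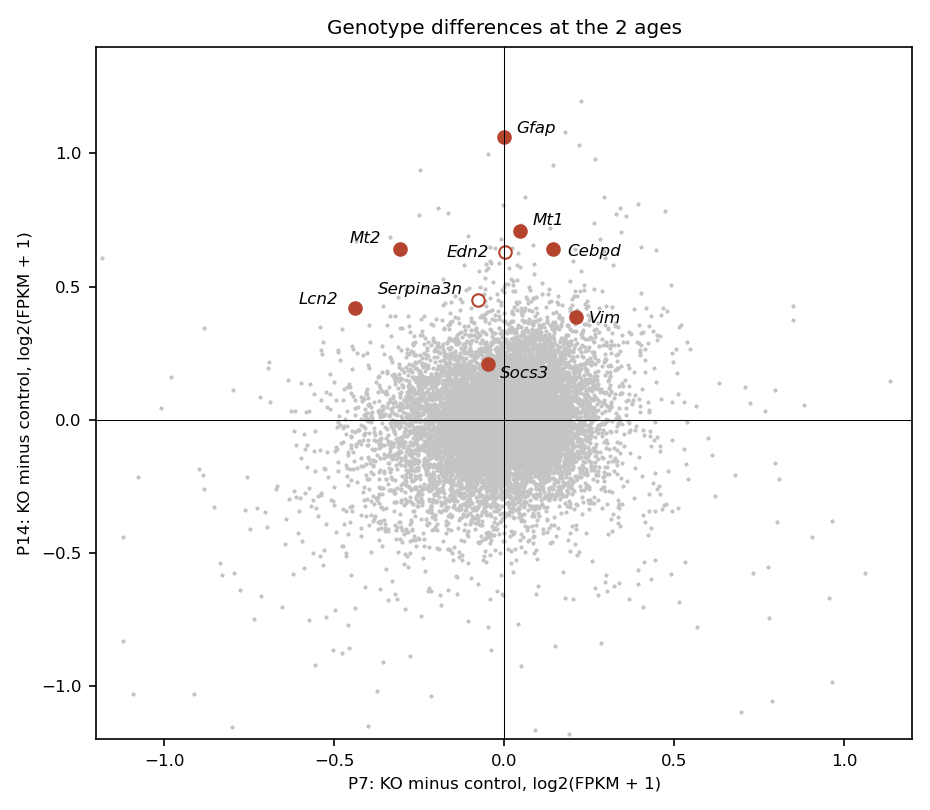
Log2(FPKM + 1) difference, KO minus control, at P7 (x axis) and at P14 (y axis), for the 12222 genes at 1 FPKM or more at both ages (grey, 30 of them beyond the axes) and for 9 members (red, open where a member was under 1 FPKM at an age). Gfap lies near 0 on the x axis and at 1.06 on the y axis, and Vim is the 1 member beyond counting error on both.

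Next, the change from P7 to P14 was followed within each genotype. In the control retina 4 of 8 members at 1 FPKM or more were higher at P14 beyond counting error (Mt1, Mt2, Cebpd and Serpina3n) and 2 were lower (Vim and Socs3). Serpina3n reached 1 FPKM only at P14 in both genotypes, and Socs3 in the control only at P7, so their place in these counts follows from the age at which they were high. The shares over 13116 genes were 27.6% and 37.7%. In the KO retina 6 of 8 were higher (Gfap and Lcn2 besides those 4) and Vim was lower, against 29.0% and 39.4% of 13047 genes. On the log2(FPKM + 1) scale Mt1 had the largest change among the members, 1.92 in the control and 2.59 in the KO retina. Mt2 followed with 1.24 and 2.19. This order depends on the pseudocount. As plain FPKM ratios, Mt1 rose 3.87 and 6.13 times, Mt2 2.44 and 4.81 times and Serpina3n 3.34 and 6.56 times (control and KO). By the 2-fold rule 7.08% of genes in the control and 7.73% in the KO retina were higher at P14. Mt1 and Mt2 passed it in both genotypes, and Gfap (1.11), Cebpd (1.11) and Serpina3n (1.30) in the KO retina alone.

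Gfap was at nearly one level at both ages in the control (log2 difference 0.04) and rose by 1.11 in the KO retina. The range that the bounds allow for this change was -0.21 to 0.29 in the control and 0.90 to 1.32 in the KO retina. For Mt1 these ranges were 1.61 to 2.22 and 2.25 to 2.82, and for Mt2 they were 0.75 to 1.62 and 1.68 to 2.55, which also did not overlap. Of 12909 genes, 1.89% had a KO range above the control range in this way and 2.94% one below it. Edn2, under 1 FPKM, also had ranges apart, on control bounds of 0 at P14. For Cebpd, Serpina3n, Lcn2, Socs3 and Vim they overlapped. Vim fell by 0.42 in the control and by 0.25 in the KO retina.

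**Figure D3:**
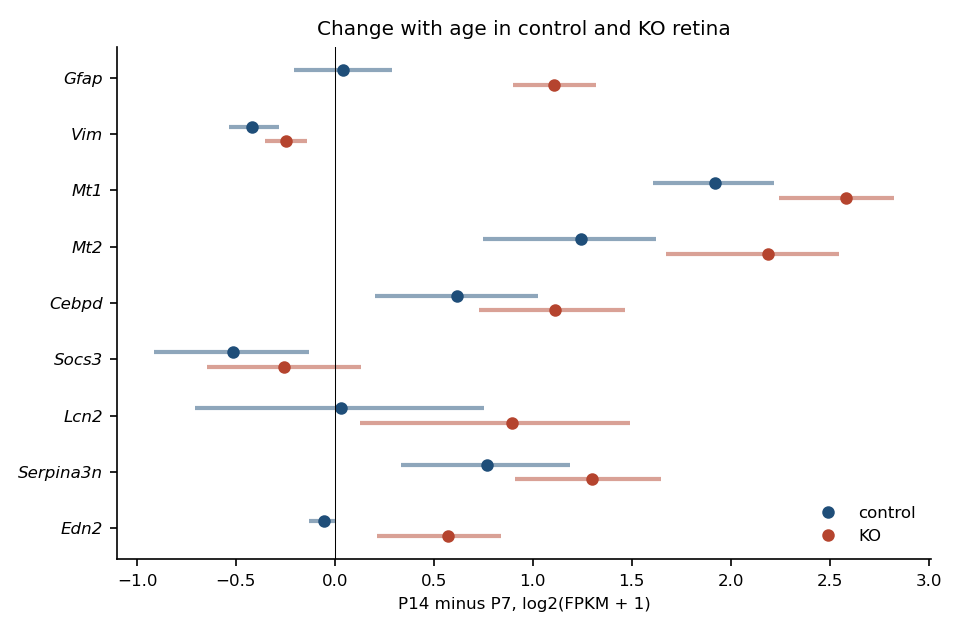
Log2(FPKM + 1) difference, P14 minus P7 (x axis), for 9 members (y axis) in control (blue) and KO (red) retina; lines span the range that the deposited bounds of the 2 libraries allow. Gfap changed by 0.04 in the control and by 1.11 in the KO retina, and Mt1 and Mt2 rose in both.

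Limma was fitted over all 4 libraries with age and genotype as additive terms, each with 2 libraries on a side. The members were chosen with a genotype comparison known, so only the age term is given. At an adjusted p below 0.05, limma called 30.7% of 12933 genes higher at P14 and 40.6% lower. The members were chosen with their P14 levels known, so their fitted values are given as a description, with no call. Mt1 was higher at P14 by 2.25 ± 0.12 (SE, log2 scale), Mt2 by 1.72 ± 0.16 and Cebpd by 0.87 ± 0.13. Serpina3n, which entered the fit only through its P14 levels, was higher by 1.03 ± 0.14. Vim fell by 0.33 ± 0.07 and Socs3 fell by 0.39 ± 0.12. The additive values of Gfap, 0.57 ± 0.18, and of Lcn2, 0.46 ± 0.16, average over unlike changes, 0.04 and 0.03 in the control against 1.11 and 0.89 in the KO retina. The fit has 1 residual degree of freedom and leans on the spread shared between genes. That degree of freedom is the difference between the genotypes in the age change, so a KO effect on that change would count as noise. The SEs hold no spread between replicate libraries or animals, and the labels do not say how many animals each library stands for.

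Other genes of the reactive state were followed in a list of 24 that leaves out the members. At P14, 1 of 14 genes at 1 FPKM or more was higher in the KO library and 3 were lower beyond counting error, with a median of 0.01. Over all 12812 genes 7.45% were higher and 8.25% lower in this way. The members and this list were chosen with results of these data known, so nothing is read from the contrast between them. The higher gene was Lgals3, which encodes galectin-3, at 4.03 against 1.87 FPKM (log2 difference 0.81). The lower ones were the ferroxidase gene Cp at 25.5 against 32.2 FPKM, A2m at 1.37 against 2.22 and the matrix gene Tnc at 1.60 against 2.50. Tnc was also lower at P7, at 5.51 against 8.93 FPKM. The hyaluronan receptor gene Cd44 was at 2.50 against 2.35 FPKM at P14, and the filament gene Nes at 1.68 against 1.32, both with overlapping bounds.

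Of 17 genes of the gp130 and JAK-STAT pathway at P14, 2 were higher in the KO library beyond counting error and 0 were lower, with a median of 0.01. The shares over all 12812 genes were 7.45% and 8.25%. Junb, an AP-1 gene that STAT3 can induce, was at 10.5 against 6.34 FPKM, and Cntfr, the receptor subunit for ciliary neurotrophic factor, at 29.4 against 25.4. The shared receptor subunit gene Il6st was at 14.2 against 14.8 FPKM with overlapping bounds. The ligand gene Lif was under 1 FPKM in all 4 libraries.

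In the list of metal and oxidative stress genes, 3 of 25 were higher and 2 lower at P14 beyond counting error, with a median of 0.04. The shares over all 12812 genes were 7.45% and 8.25%. Mt3 was at 90.01 against 69.4 FPKM (0.37), and Mtf1, the zinc-sensing factor, at 5.76 against 4.43 (0.31). Mt3 was at 18.9 and 19.8 FPKM at P7, so it rose with age as Mt1 and Mt2 did. The zinc importer gene Slc39a10 was lower, at 8.31 against 10.96 FPKM. Mt4 was listed at 0 in all 4 libraries. Among the other C/EBP genes 0 of 3 differed beyond counting error at P14. Among other endothelin genes 1 of 4 did: Ednrb, a receptor for endothelin-2 that Mueller glia carry, was at 2.95 against 1.51 FPKM (0.66) and had overlapping bounds at P7.

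Some genes of acute responses were higher in the KO P14 library too, in lists written with results of these data known. Their counts are therefore a description. Over all 12812 genes 7.45% were higher and 8.25% lower beyond counting error. Among 10 immediate early genes, 6 had clear gaps upward between their bounds and 0 downward, with a median of 0.43, and Egr1 was at 18.9 against 5.15 FPKM. Of 11 genes in a list for the glucocorticoid response 5 were higher and 1 lower, with a median of 0.21. The lower one was the receptor gene Nr3c1, at 9.83 against 11.7 FPKM. Among the higher ones, Fkbp5 was at 13.7 against 9.55 FPKM and Ddit4 at 88.2 against 64.0. Tsc22d3, at 39.9 against 36.4 FPKM, and Sgk1, at 29.0 against 27.6, had overlapping bounds, as did Zbtb16, Errfi1 and Nfkbia. At P7 the medians of these lists were 0.03 and 0.09. Metallothionein genes and Cebpd are also known targets of glucocorticoids. The part of these responses in the members' levels was not tested.

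The genes whose levels ran most like those of Gfap over the 4 libraries were Nr4a1, Dusp1, Spry4, Ctgf and Fhit, in that order, among 11460 genes at a mean of 2 FPKM or more. Likeness is the Euclidean distance between log2(FPKM + 1) values centred on each gene's own mean, and it was 0.24 for Nr4a1 and 0.25 for Dusp1, both immediate early genes. Cebpd ranked 10 in this order, Lcn2 79, Vim 5199, Mt2 7076 and Mt1 10294. Among the 5 most like Mt1 were Selenbp1, S100a6, S100a4 and Krt18, at distances of 0.13 to 0.30, and Mt2 ranked 80. With 4 libraries these orders are descriptions.

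Markers of glia and other cells were read from the same libraries, and their part in the members' levels was not tested. In bulk tissue, more cells of a type and more RNA per cell cannot be told apart. Over all 12812 genes 7.45% were higher and 8.25% lower at P14 beyond counting error. Of 15 Mueller glia markers at P14, 2 were higher and 2 lower in this way, with a median of -0.03. Their summed level was 3375 FPKM in the control and 3432 in the KO library, and it was 1562 and 1630 at P7. Glul, glutamine synthetase, was at 1190 against 1124 FPKM at P14, and the transporter gene Abca8a at 17.5 against 24.3. Of 4 astrocyte markers 0 differed beyond counting error at P14, and of 6 at P7 also 0, although all 6 had a higher level in the KO library (median 0.14). Pax2, which marks astrocytes of the optic nerve and retina, was at 0.403 against 0.381 FPKM, and the summed level of the 7 markers was 30.7 against 28.0 FPKM. The 11 microglia markers at 1 FPKM or more had a median of -0.13, and the summed level of the list was 53.3 against 58.4 FPKM. Of 8 endothelial and pericyte markers 2 were higher and 1 lower, with a median of 0.10 and a summed level of 91.4 against 86.3 FPKM. Neutrophils carry much lipocalin-2. Their 7 markers summed to at most 0.396 FPKM in any library, and Ngp and Elane were at 0 in all 4.

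At P14, genes of blood and of tissue next to the retina had lower levels in the KO library. Over all 12812 genes 7.45% were higher and 8.25% lower beyond counting error. All 5 erythroid genes were lower in the KO library (summed level 356 against 1180 FPKM), the globin genes among them being near copies that reads may not separate. Of 11 pigment epithelium genes 8 were lower and 0 higher, with a summed level of 466 against 526 FPKM. Most of both sums was Rlbp1, at 302.6 against 301.2 FPKM, which is also counted among the Mueller glia markers. The sums therefore understate how much the other genes of this list differed. All 7 vitreous, lens and ciliary genes at 1 FPKM or more were lower, among them Optc at 4.17 against 39.1 FPKM. At P7 these 3 lists had medians above 0 in the KO library (0.22, 0.25 and 0.82). The part of such RNA in the members' levels was not tested. Genes of the neural retina, from rods to bipolar cells and progenitors, were present in all 4 libraries, and at P14 the bounds were apart upward for 3 of 8 and downward for 1, with a median of 0.03.

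**Figure D4:**
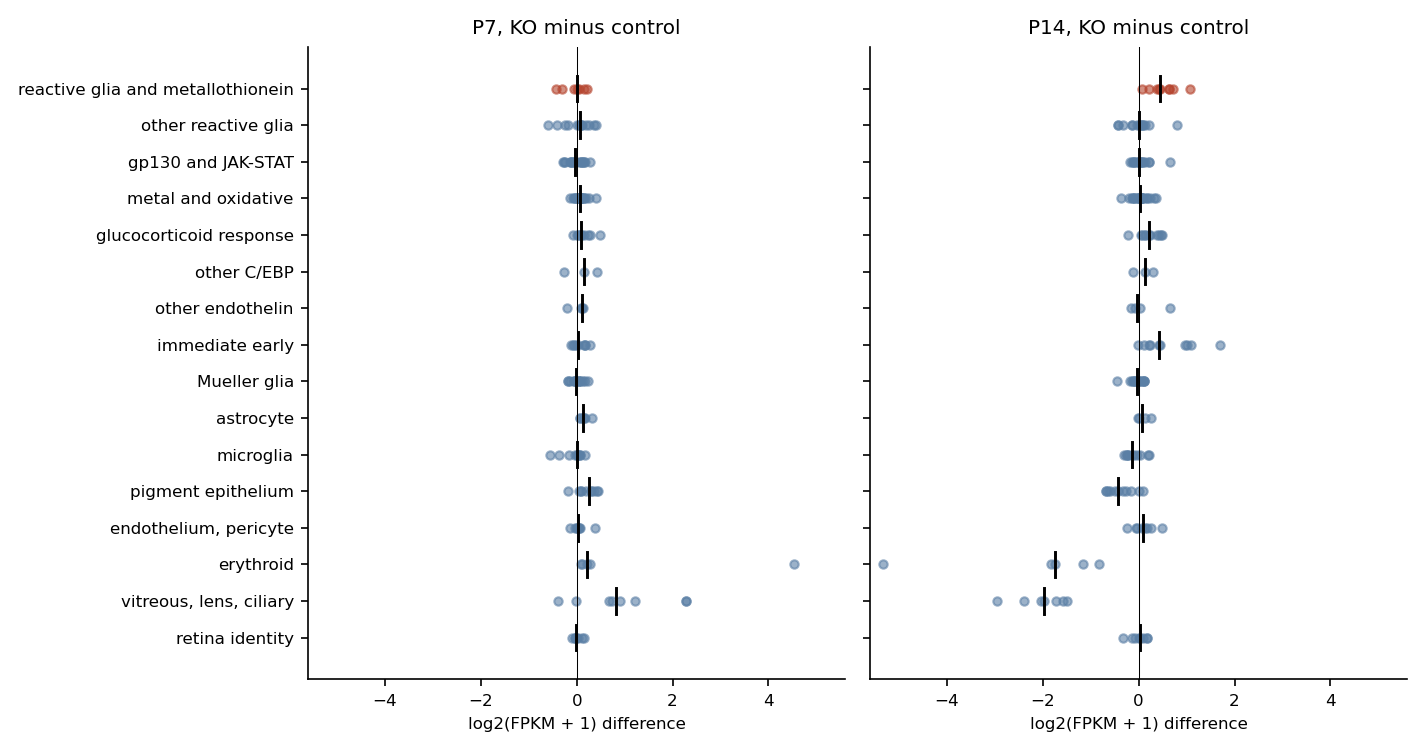
Log2(FPKM + 1) difference, KO minus control, at P7 (left) and P14 (right) for each gene at 1 FPKM or more (dots) in 16 lists (y axis); black bars are medians. The members' median was -0.0014 at P7 and 0.45 at P14, that of immediate early genes 0.03 and 0.43, and that of Mueller glia markers -0.01 and -0.03.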

How the data were processed

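The deposited values are FPKM per gene locus with a lower and an upper bound, and the submitters' processing notes name Cufflinks 2.1.1, TopHat2 2.0.8b, CASAVA 1.8.2 and the mm9 build. For annotation and options, the sources used here give nothing. Per the labels' protocols, random-primed cDNA of total RNA was read as 36-base single ends. Loci of one symbol (251 symbols) were summed, failed values were left out, and 743 small RNA genes or loci under 300 bases were left out of the counts over all genes. These held 7.96% to 10.7% of the summed FPKM. Reads were amplified by PCR and carry no molecular identifier, so molecules may be counted repeatedly. At 1 to 10 FPKM the bounds lay a median of 13.0% to 15.4% of the level to each side, and above 10 FPKM 6.25% to 7.55%.

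Genes were counted at 1 FPKM or more in either library compared, with a pseudocount of 1 FPKM. The age test used limma 3.58.1 in R 4.3.3, with its trend option and p-values adjusted by Benjamini-Hochberg, on genes that reached 1 FPKM in 2 or more libraries. On 20 simulated data sets of 12933 genes it recovered a median of 45 of 50 genes changed 2-fold, with 6.42% false calls. Few genes changed in these sets, whereas limma called most genes in the real data. The simulated spread was set by hand, and no simulated age change differed between the genotypes. The rates hold for that setting and do not describe the fit reported. The members and lists were chosen with earlier results of these data known. The genes named besides the members were, per list, up to 6 at P14 and 3 at P7 with bounds apart and the largest differences, defining markers at or near 0, and the 5 nearest to Gfap and to Mt1. Cd44, Nes, Il6st, Lif, Pax2, Rlbp1, Tsc22d3, Zbtb16, Errfi1 and Nfkbia were added after their values were seen. Some genes that this rule names are not reported here. Promoters are from RefSeq and transcripts from GENCODE M21, both on GRCm38, matched by symbol.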

Additional observations from a re-analysis of the deposited data

Results flagged for a closer look

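Of the genes named or considered beside the members, 6 differed between the genotypes beyond counting error in opposite directions at P7 and P14. With 1 library per group this difference was not tested. The change in the KO minus control log2 difference from P7 to P14 was -5.24 for the vitreous gene Optc (2.28 at P7 and -2.96 at P14) and -1.04 for the pigment epithelium gene Dct (0.37 and -0.68). It was -0.52 for Cp (0.19 and -0.33) and -0.23 for the Mueller glia marker Dkk3 (0.09 and -0.14). It was 0.57 for the immediate early gene Btg2 (-0.12 and 0.44) and 0.23 for Glul (-0.15 and 0.08). No member was apart in opposite directions at the 2 ages.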

How the results depend on the processing

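The alternatives were a pseudocount of 0.1 FPKM, a TPM scale, median ratio scaling, no floor, a floor of 5 FPKM and, chosen after seeing the data, the midpoint of the bounds in place of FPKM. Of the members' log2 differences under them, 211 stayed within the range their bounds allow, 11 moved out of it and 0 called ones changed sign. A floor sets only which genes are counted, so with no floor or a floor of 5 FPKM each difference was unchanged by construction. Those cases are among the 211 and say nothing about robustness. Of the counts of members apart beyond counting error, those of P14 against P7 in the control moved by over 1.5 times, to 2 higher and 1 lower at a floor of 5 FPKM, because 4 members were then counted. Smaller moves were to 5 higher with age in the KO retina at that floor and, on the TPM scale or with no floor, where Edn2 was counted, to 7 with age in the KO retina and 6 in the KO library at P14. Members past 2-fold at P14 became 2 on the TPM scale, where the pseudocount sets the value of Edn2 against a control listed at 0. The share of all genes higher in the KO library at P14 became 3.89% on the TPM scale and 4.70% with no floor. Median ratio scaling moved the median of all genes by 0.11 for age in the control.

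For the age term, limma called 3643 genes higher and 6234 lower on the TPM scale and 4682 and 4399 with median ratio scaling, against 3974 and 5256. No paired analysis was possible because each group has 1 library and the labels carry no replicate numbers. Leaving out a library leaves the additive fit no residual degree of freedom, so it was not run.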
